A study of Homo sapiens with 6 samples.

Results

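The genes followed here set the balance between the epithelial and the mesenchymal state, and were measured in MDA-MB-468, a human breast cancer line of the basal-like, triple-negative kind. They were chosen by gene name, as 10 of the 45019 rows of each deposited file: the repressors of epithelial genes ZEB1, ZEB2, SNAI1, SNAI2 and TWIST1, and the keepers of the epithelial state GRHL1, GRHL2, OVOL1, OVOL2 and ESRP1. All are transcription factors but ESRP1, a splicing factor. Untreated cells were compared with cells grown for 10 days with 100 µM DETA/NO, a donor that frees nitric oxide slowly in the medium. Treated cells were trypsinised, pooled within a replicate and replated every 48 h, with the donor added after 4 h of adherence. All cells shared the line and its growth medium, and no allele or transgene is named in the labels. The labels give 3 samples a group. The files labelled DETA/NO replicates 1 and 2 carry the same values and the same column name and were treated as a single library, which leaves 3 untreated libraries and 2 with DETA/NO. Whether replicates were independent cultures is not stated in the labels, so each p-value reflects only how these libraries vary, which may be technical.

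In epithelial cells, ZEB, Snail and TWIST proteins bind E-box sequences in the promoters of cadherin and junction genes and switch them off, with corepressors such as CTBP and histone deacetylases. Grainyhead-like (GRHL) and OVOL factors act on the other side: GRHL proteins keep junction genes active, and OVOL proteins repress ZEB1. ZEB factors and the miR-200 microRNAs repress each other, a loop known from breast cancer lines.

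RefSeq promoters (GRCh38.p14) of 3 of the 10 genes, ZEB1, ZEB2 and GRHL1, were searched for motifs of these factors. Each run is the 250 bases before an annotated start, 5′ to 3′ on the gene's strand. Capitals mark a match to the E-box CACCTG or its reverse complement CAGGTG, or to the OVOL motif CCGTTA or TAACGG. AACCGGTT, a GRHL motif that reads the same on both strands, was also searched. Of 7 ZEB1 windows, window 1 (chr10:31318167-31318416, plus strand) and window 4 (chr10:31319518-31319767, plus strand) are shown because they hold a match and no exon of a coding gene in GENCODE 29. The single GRHL1 window (chr2:9951443-9951692, plus strand) is shown because GRHL1 was the keeper that fell.
ZEB1 window 1: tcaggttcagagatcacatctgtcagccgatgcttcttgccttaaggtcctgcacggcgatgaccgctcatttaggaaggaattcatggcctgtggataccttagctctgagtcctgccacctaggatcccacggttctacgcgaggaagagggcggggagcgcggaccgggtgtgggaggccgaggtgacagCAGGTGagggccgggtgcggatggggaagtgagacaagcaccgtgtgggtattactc
ZEB1 window 4: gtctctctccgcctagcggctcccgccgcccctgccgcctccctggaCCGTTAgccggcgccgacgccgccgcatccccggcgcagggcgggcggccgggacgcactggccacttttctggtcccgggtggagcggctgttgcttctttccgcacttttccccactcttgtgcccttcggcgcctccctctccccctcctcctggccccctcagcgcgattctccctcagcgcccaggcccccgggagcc
GRHL1 window: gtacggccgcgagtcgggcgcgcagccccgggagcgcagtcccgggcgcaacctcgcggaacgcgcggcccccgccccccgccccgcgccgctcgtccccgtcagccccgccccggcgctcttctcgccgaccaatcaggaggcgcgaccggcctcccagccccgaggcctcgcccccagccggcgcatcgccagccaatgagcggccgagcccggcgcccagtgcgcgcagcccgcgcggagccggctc

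Counted from the start, ZEB1 window 1 held 1 E-box with its first base at -57, and window 4 held 1 OVOL motif with its first base at -203. A further ZEB1 window held 2 E-boxes. The GRHL1 window held none of the 3 motifs, nor did the ZEB2 window. Among 35116 promoter windows of the same length, 17.5% held the E-box, 2.45% the OVOL motif and 0.117% the GRHL motif. These shares are per window, while ZEB1 was searched in 7 windows and so had more places for a match. The matches in ZEB1 describe its sequence and show no binding.

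The miR-200 family, which binds ZEB mRNAs, has 2 seeds (bases 2 to 8, in capitals) that differ at 1 base. The mature forms from RefSeq are shown because their precursors have rows in the files, with the values given further on.
hsa-miR-200b-3p: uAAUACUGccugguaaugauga
hsa-miR-429: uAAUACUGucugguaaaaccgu
hsa-miR-200c-3p: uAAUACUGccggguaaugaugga
hsa-miR-200a-3p: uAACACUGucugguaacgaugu
hsa-miR-141-3p: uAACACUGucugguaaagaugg

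The values are normalized reads, that is, read counts the submitters divided by 1 size factor per library. Recovered totals ran from 28897422 to 34637343 reads per library. The line's markers were present: EGFR, amplified in this line, stood at 217563 to 247990 normalized reads, EPCAM at 12806 to 13708 and the keratins KRT5, KRT8, KRT17 and KRT18 at 20521 or more in every library. KRT14, the other keratin on the marker list, had reads in every library, and its level is not given. Markers of other cell types were low or absent, with exceptions. Of 8 fibroblast genes, THY1 was listed at 0 throughout and COL1A1, at 567 to 842, made up nearly all of the sum, which was 592 to 642 in untreated and 845 to 851 in DETA/NO libraries. The 6 endothelial genes summed to 333 to 368 and 523 to 577, with CDH5, KDR and TEK called higher and CLDN5 at 0 or 1 read. The 6 immune genes summed to 923 to 976 and 428 to 492. Nearly all of that was CD14, which fell, and PTPRC rose, while TYROBP was listed at 0. The 4 adipocyte genes summed to 49.7 to 73.0 and 47.5 to 48.8, with FABP4 at 0. The part of these markers in the results below was not tested. In RNA from whole cultures, fewer cells of a type and less RNA per cell cannot be told apart.

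Keepers outweighed repressors by far in both groups. To compare genes, values were divided by exon length (GENCODE 29, all basic transcripts). ESRP1 had 2061 ± 19.0 normalized reads per kb in untreated libraries (SD, n = 3), GRHL1 2056 ± 71.2, GRHL2 1061 ± 12.3 and OVOL2 545 ± 19.9. ESRP1 and GRHL1 overlapped across libraries, and the other steps in that order did not. In every library these 4 keepers lay above every repressor. By mean level per kb, ESRP1 stood above 95.2% of the 15842 tested genes with a length, and OVOL2 above 77.4%.

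The repressors and the remaining keeper followed. SNAI1 had 48.8 ± 9.13 normalized reads per kb in untreated libraries, above 32.7% of genes over all libraries. OVOL1 (10.97 ± 2.60), TWIST1 (6.31 ± 1.148) and ZEB1 (5.67 ± 1.63) followed, with overlap between OVOL1 and TWIST1 and between TWIST1 and ZEB1. SNAI1 lay above OVOL1, and ZEB1 above ZEB2, in every library. ZEB2 came to 0.0946 and SNAI2 to 0. Summed per kb, the 5 keepers were 106, 98.9 and 81.3 times the 5 repressors in untreated libraries 1, 2 and 3. The ratio was 61.6 in the shared DETA/NO library and 60.4 in DETA/NO library 3. Both DETA/NO ratios lay below all untreated ones, a description for which no test was made. SNAI1 holds most of the repressor sum.

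**Figure D1:**
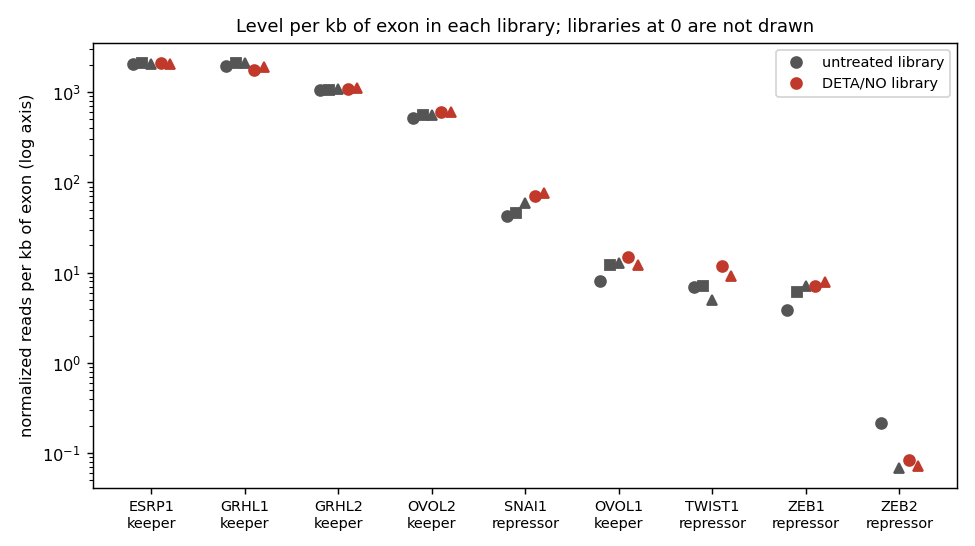
Normalized reads per kb of exon (log axis) for the 9 genes with any read, ordered by mean level, with 1 point per library (grey untreated, red DETA/NO; circles, squares and triangles are libraries 1, 2 and 3, and the red circle is the shared DETA/NO library 1 and 2). Points at 0 are not drawn, which leaves out ZEB2 in untreated library 2. ESRP1, GRHL1, GRHL2 and OVOL2 lie at 522 or more and every repressor lies at 77.2 or less.

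DETA/NO against untreated was tested with limma across 16409 genes with a mean of at least 10 normalized reads. The call was a Benjamini-Hochberg adjusted p under 0.05, and fold changes are on the log2(value + 1) scale, which understates changes of low genes. Of the 10 members, 8 passed the filter: 3 repressors and all 5 keepers. SNAI1 and OVOL2 rose, GRHL1 fell and 5 did not pass the test. Among all tested genes 43.4% were called, 21.7% in each direction, so 3 of 8 is no more than the background. DETA/NO libraries lay above all untreated ones in 5 members and below in 1, against 61.2% of all tested genes with no overlap in either direction (30.4% above, 30.8% below).

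**Figure D2:**
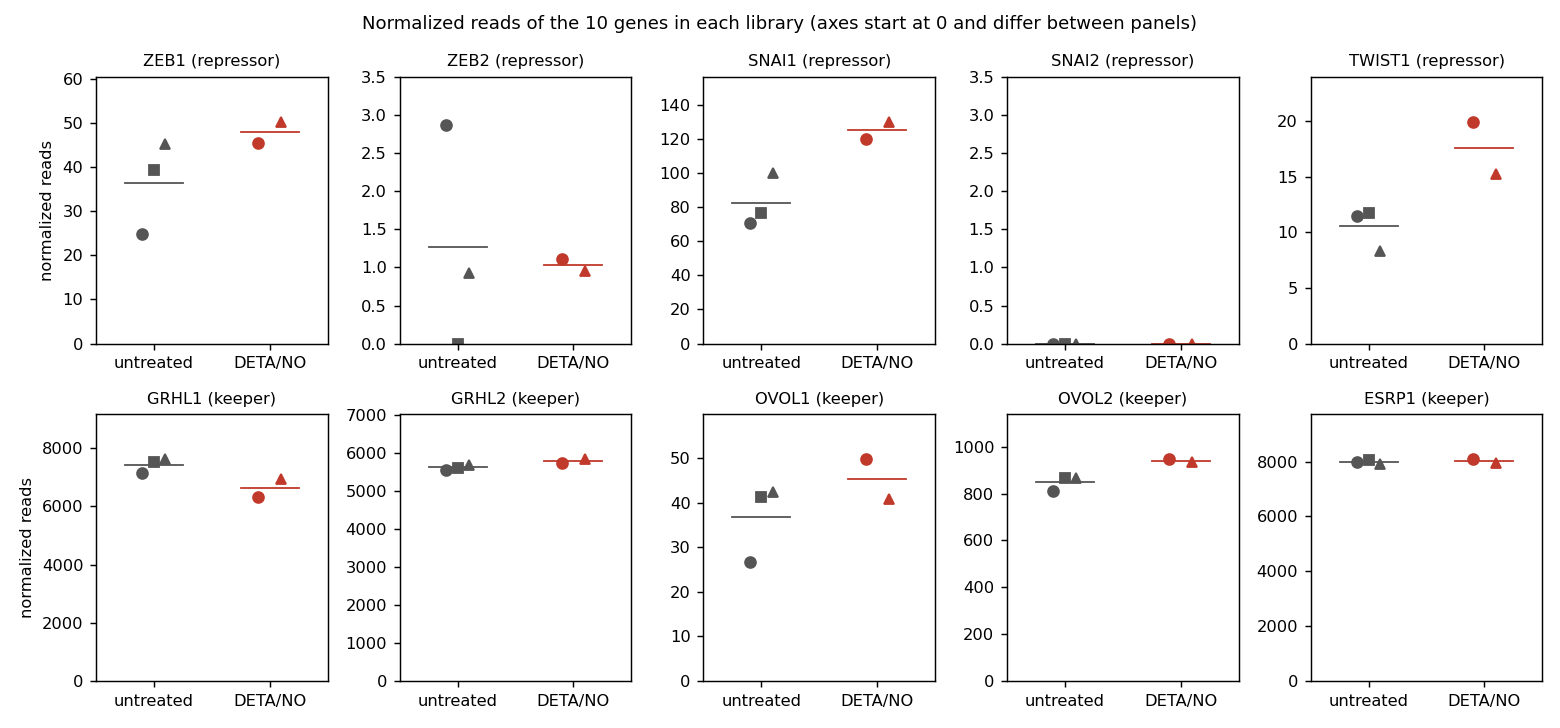
Normalized reads of each gene in the 3 untreated (grey) and 2 DETA/NO (red) libraries, with the group mean as a line; vertical axes start at 0 and differ between panels, and the red circle is the shared DETA/NO library 1 and 2. SNAI1, TWIST1, GRHL2, OVOL2 and, only just, ZEB1 lie higher in both DETA/NO libraries. GRHL1 lies lower, ESRP1, OVOL1 and ZEB2 overlap, and SNAI2 is at 0.

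Among the repressors, SNAI1 changed most clearly. SNAI1 encodes Snail, a zinc finger protein that represses CDH1, and lies on chromosome 20 at 49982999 to 49988886 (GRCh38, as all positions here). Its level was 70.7, 76.5 and 99.8 normalized reads untreated and 119.7 and 130.1 with DETA/NO, from 74 to 137 recovered reads. The groups did not overlap, and untreated library 3 was the nearest to them. The log2 fold change was 0.61 ± 0.157 (SE; limma adjusted p = 0.00202), a 1.53-fold rise. It kept its call in edgeR (adjusted p = 0.00147) and DESeq2 (0.0211), and without each library in turn. Limma without its variance trend and robust option gave an adjusted p of 0.0563.

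ZEB1, a zinc finger and homeodomain repressor of CDH1 on chromosome 10 (31318495 to 31529814), had few reads. Its normalized reads were 24.8, 39.2 and 45.3 untreated and 45.4 and 50.3 with DETA/NO. The lower DETA/NO value lay only just above the highest untreated one, and in recovered reads (49 against 41) it was the other way round. The log2 fold change was 0.42 ± 0.239 (limma adjusted p = 0.156), with a 95% interval from -0.06 to 0.91. Without untreated library 3 it was 0.60, with an adjusted p of 0.0492, while without untreated library 1 it was 0.18.

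TWIST1, a basic helix-loop-helix factor on chromosome 7 (19020991 to 19117672), had 11.5, 11.8 and 8.32 normalized reads untreated and 19.9 and 15.2 with DETA/NO. These rest on 9 to 18 recovered reads per library. The groups did not overlap, and the log2 fold change of 0.69 ± 0.367 did not pass (limma adjusted p = 0.132; 95% interval -0.06 to 1.44). Counting the identical DETA/NO files as separate samples would give an adjusted p of 0.0234.

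ZEB2 and SNAI2 did not pass the filter on low values. ZEB2, the close relative of ZEB1 on chromosome 2 (144364364 to 144524583), had 3, 0 and 1 recovered reads untreated and 1 in each DETA/NO library. SNAI2, which encodes Slug, was listed at 0 in all 5 libraries, which allows up to 3 reads per library, or 2.77 to 3.32 normalized reads (counting error only). No difference between groups could be seen at this depth for either gene. A gene can also be listed at 0 for the way reads were assigned, and neither strand setting nor annotation is known for these counts.

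Among the keepers, GRHL1 was the member that fell. GRHL1 encodes a grainyhead-like activator of desmosomal genes and lies on chromosome 2 at 9951693 to 10002277. It had 7145, 7533 and 7633 normalized reads untreated and 6339 and 6930 with DETA/NO. Both DETA/NO libraries lay below all untreated ones, and the shared library 1 and 2 was the lower. The log2 fold change was -0.17 ± 0.037 (limma adjusted p = 0.000644), so the level fell by 10.8%. Without the shared DETA/NO library it was -0.10 (adjusted p = 0.0559), and limma without trend and robust option gave 0.1102.

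GRHL2, the grainyhead-like factor best known for holding up CDH1 and claudin genes, lies on chromosome 8 at 101492432 to 101669726. It had 5568, 5607 and 5696 normalized reads untreated and 5738 and 5848 with DETA/NO. The DETA/NO libraries were both higher, by less than the test needs: the log2 fold change was 0.04 ± 0.032 (limma adjusted p = 0.304), with a 95% interval from -0.02 to 0.11.

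OVOL2, a zinc finger repressor of ZEB1 on chromosome 20 (17956979 to 18059188), had 812, 866 and 866 normalized reads untreated and 948 and 934 with DETA/NO. The groups did not overlap, and the log2 fold change was 0.15 ± 0.057 (limma adjusted p = 0.0322), a rise of 11.03%. The call was lost in DESeq2 (adjusted p = 0.115) and in limma without trend and robust option (0.0801). It was also lost without untreated library 1 (0.135), the shared DETA/NO library (0.142) or DETA/NO library 3 (0.0804).

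OVOL1, its relative on chromosome 11 (65787022 to 65797219), had 26.8, 41.2 and 42.5 normalized reads untreated and 49.9 and 40.8 with DETA/NO. The groups overlapped (log2 fold change 0.32 ± 0.234, limma adjusted p = 0.296), and 31.1% of its exon length is covered by an antisense gene, so its reads are uncertain. The value rested on single libraries: it was 0.11 without untreated library 1, 0.17 without the shared DETA/NO library and 0.46 without DETA/NO library 3, and passed in none of these.

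ESRP1, the epithelial splicing regulator on chromosome 8 (94641074 to 94707466), was the most even member. It had 7983, 8039 and 7893 normalized reads untreated and 8098 and 7957 with DETA/NO. The groups overlapped, and the log2 fold change was 0.01 ± 0.030 (limma adjusted p = 0.827), with a 95% interval from -0.05 to 0.07.

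**Figure D3:**
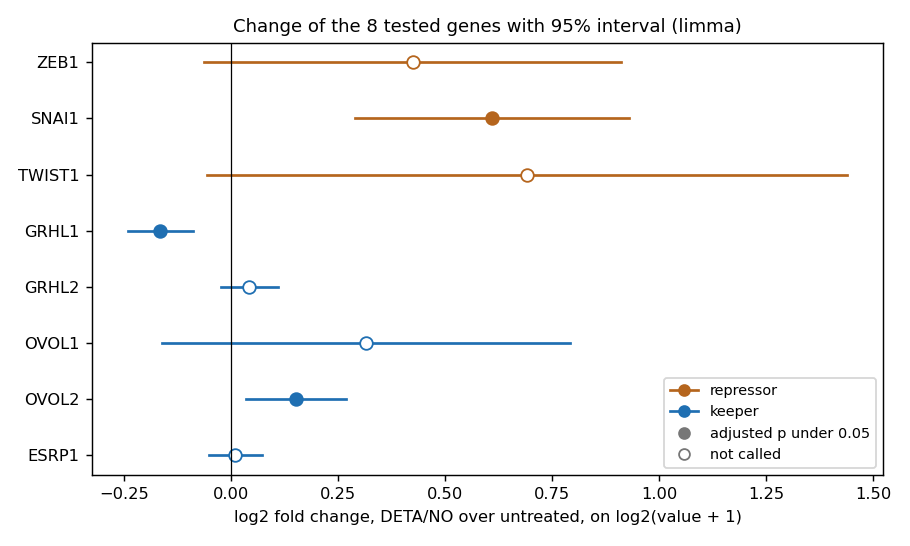
Log2 fold change of DETA/NO over untreated on the log2(value + 1) scale for the 8 tested genes, with the 95% interval from limma; filled points had an adjusted p under 0.05 and open points did not. Repressors (brown) sit at 0.42 to 0.69 with wide intervals, and keepers (blue) between -0.17 and 0.32.

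Set side by side, 1 of 3 tested repressors rose and 0 fell, with a median log2 fold change of 0.61. That median is the value of SNAI1, the middle of the 3, and ZEB1 and TWIST1 were not called. Of 5 keepers 1 rose and 1 fell, with a median of 0.04, the value of GRHL2. The median over all 16409 tested genes was -0.00016. Per library, the median log2 value of the 3 repressors over their untreated mean was -0.20, 0.15 and 0.29 in untreated libraries 1 to 3 and 0.55 and 0.51 in the DETA/NO libraries. For the keepers it was -0.06, 0.02 and 0.03, then 0.03 and 0.06. The repressor values of the DETA/NO libraries lay above all untreated ones, and those of the keepers overlapped. Each repressor value is that of 1 gene, SNAI1 in the shared DETA/NO library and TWIST1 in DETA/NO library 3. Repressors and keepers also differ in depth, with 9 to 137 recovered reads per library in the tested repressors and 28 to 8541 in the keepers, and the part of this in their difference was not tested.

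Genes with nearly the same profile over the 5 libraries were found by the smallest root mean square distance of centred log2 values, among 11532 genes with a mean of at least 100. For SNAI1 these were CDKN1A (distance 0.065), KRT6B (0.066) and AREG (0.074). For GRHL1 they were PTGES, SERINC2 and SNX17, and for OVOL2 they were UNK, PPP4C and NAT9, all within 0.0154. Such small distances over 5 libraries in 2 groups are a description.

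Other factors of the same kinds changed in both directions. Of 21 further factors that drive the mesenchymal state, 13 passed the filter. Of these 6 rose and 1 fell (median log2 fold change 0.15), where 21.7% of all genes were called in each direction. HMGA2, a chromatin protein that can induce SNAI1, went from 51.6, 31.4 and 49.9 normalized reads to 215 and 162 (log2 fold change 2.09 ± 0.195, limma adjusted p = 3.05e-09). ETS1 rose by 0.49 on the log2 scale, and KLF8, a CDH1 repressor, had a log2 fold change of -0.21, which was not called without limma's trend and robust option (adjusted p = 0.0583). TWIST2, the relative of TWIST1, had 127, 123 and 109 and then 150 and 133 (adjusted p = 0.149), and SNAI3 was listed at 0 throughout.

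All 16 further factors of epithelial identity passed the filter, of which 7 rose and 6 fell (median -0.06). So 13 of 16 were called, beside 43.4% of all tested genes. No test of that share was made, and the list was chosen with earlier results of these data known. KLF4, a zinc finger factor that activates CDH1, rose by 0.66, and GATA3, a luminal factor, by 0.47. EHF, an ETS factor of epithelia, had a log2 fold change of -0.30 and RBM47, an RNA-binding protein, of -0.24. The largest fall on the list was that of SPDEF (-0.78, limma adjusted p = 9.40e-07). The largest rise was that of TP63 (0.91, limma adjusted p = 2.32e-05), from a mean of 64.7 normalized reads to 122.5. Relatives of the keepers were on this list too. GRHL3 had 935, 1055 and 1106 normalized reads untreated and 807 and 933 with DETA/NO. Its log2 fold change was -0.25 ± 0.072 (limma adjusted p = 0.00943, but 0.159 without the shared DETA/NO library and 0.153 without trend and robust option). For ESRP2 it was -0.05 (adjusted p = 0.445). OVOL3 had 42.1, 54.0 and 56.4 normalized reads untreated and 93.1 and 65.5 with DETA/NO, with no overlap. Its log2 fold change was 0.62 ± 0.195 (limma adjusted p = 0.00993). That call ended without untreated library 1 (0.0617) or the shared DETA/NO library (0.263), in DESeq2 (0.0621), with a replicate block that counts the shared library as number 2 (0.0590) and without limma's trend and robust option (0.0903).

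Of 20 corepressors that ZEB and Snail proteins use, 10 rose and 1 fell (median 0.09), beside 21.7% of all tested genes in each direction. Without DETA/NO library 3, 6 were called in either direction. LOXL2, an oxidase reported to stabilise Snail, rose by 0.98, and WTIP, a LIM protein, by 0.51, while EZH2, the Polycomb methyltransferase, had a log2 fold change of -0.17. CTBP1 and HDAC1 had 0.04 and -0.07 and did not pass (adjusted p = 0.563 and 0.0540). Their relative CTBP2 rose by 0.16 (limma adjusted p = 0.00113), and HDAC2 had 0.01 and did not pass (0.823). Of 12 tested genes for phosphorylation and turnover of Snail proteins, 4 rose and 2 fell (median 0.09), beside the same 21.7% in each direction. LATS2, a kinase that acts on Snail, rose by 0.29 and GSK3A, a Snail kinase with 12.2% of its exon length overlapped by another gene, by 0.23. BTRC, the ubiquitin ligase subunit that marks phosphorylated Snail for decay, had a log2 fold change of -0.17 (limma adjusted p = 0.0115), a call that ended when untreated library 1 (0.0621) or DETA/NO library 3 (0.0869) was dropped and in DESeq2 (0.0593). CTDSP1, a Snail phosphatase, had -0.16 (adjusted p = 0.0138, and 0.114 without DETA/NO library 3 and 0.0657 in DESeq2). Without limma's trend and robust option BTRC and CTDSP1 had adjusted p of 0.0599 and 0.0820.

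Upstream, 6 of 12 tested genes of the TGF-beta and activin pathway rose and 1 fell (median 0.17), beside 21.7% each way over all tested genes. SMAD4 was low, with 36.3, 26.5 and 26.8 normalized reads untreated and 29.9 and 15.2 with DETA/NO (limma adjusted p = 0.220). SMAD2 and SMAD3 had untreated means of 4360 and 2836. Whether this pathway signals in these cells was not tested. INHBA, the activin A subunit, rose by 2.81. TGFB2 went from 6764, 6603 and 6420 normalized reads to 9835 and 9129 (log2 fold change 0.52 ± 0.034, limma adjusted p = 8.34e-14), with 27.1% of its exon length shared with another transcript. TGFB1 rose by 0.27, and SKIL, an inhibitor of SMAD signalling, had a log2 fold change of -0.14, whose adjusted p was 0.0559 without the shared DETA/NO library and 0.106 without trend and robust option. The miR-200 precursors lay near the floor: MIR200A had 5.54 to 12.01 normalized reads over the 5 libraries, MIR200B 3.32 to 9.24 and MIR429 4.78 to 15.7, and MIR200C and MIR141 were listed at 0. These rows count fragments of the precursor and not the mature microRNAs printed above. Of 3 tested host genes, MIR200CHG, which hosts miR-200c and miR-141, had 24.8, 48.1 and 46.2 normalized reads untreated and 35.5 and 42.7 with DETA/NO. These groups overlapped (log2 fold change 0.03 ± 0.254, limma adjusted p = 0.941). MIR34AHG rose by 0.24 and MIR205HG had -0.15, and both calls were lost in DESeq2 (adjusted p = 0.0931 and 0.0723) and without limma's trend and robust option (0.0633 and 0.176). MIR34AHG also lost its call without untreated library 1 (0.0895) or the shared DETA/NO library (0.222). MIR205HG lost it without untreated library 2 (0.0523), untreated library 3 (0.0594) or DETA/NO library 3 (0.274). Of the listed antisense partners, ZEB1-AS1, which starts beside ZEB1, was the 1 tested, at -0.38 on the log2 scale (adjusted p = 0.143).

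**Figure D4:**
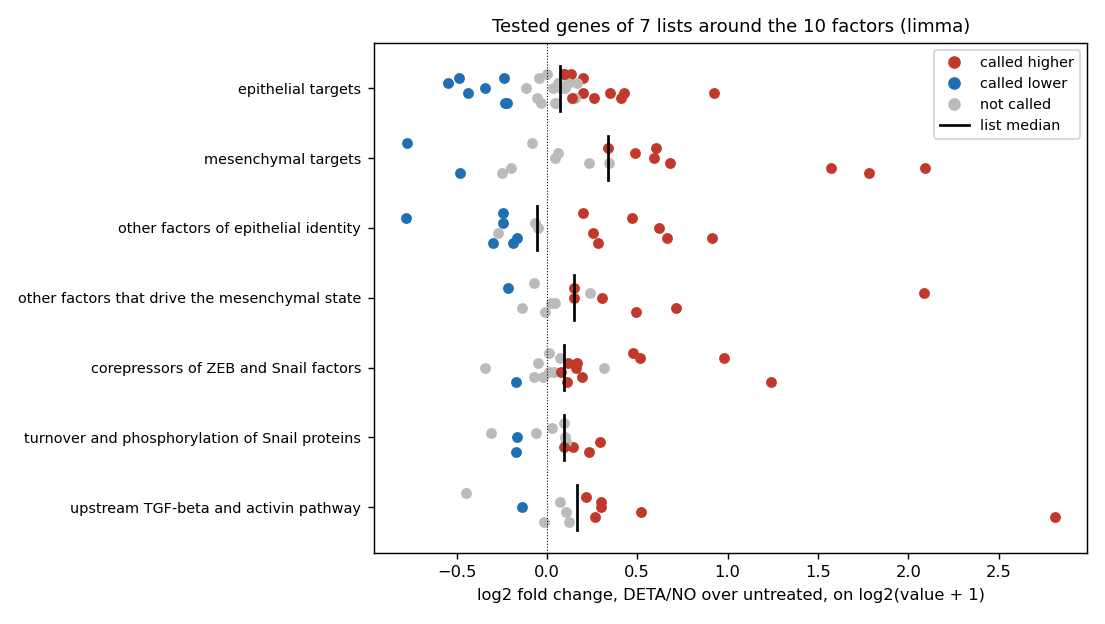
Log2 fold change of DETA/NO over untreated for the tested genes of 7 lists, on the log2(value + 1) scale, with 1 point per gene and a black line at each list's median; red and blue points were called higher and lower by limma. The mesenchymal targets reach 2.09 with a median of 0.34, and the epithelial targets lie between -0.55 and 0.92 with a median of 0.07.

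Genes listed as targets of these factors were called in both directions, and whether the factors control them in this line was not tested. Of 32 epithelial targets 11 rose, 7 fell and 14 did not pass (median 0.07), where 21.7% of all tested genes rose and 21.7% fell. CDH1, the E-cadherin gene that ZEB and Snail proteins repress, had 4255, 4429 and 4651 normalized reads untreated and 4239 and 4303 with DETA/NO. The groups overlapped, and the log2 fold change was -0.06 ± 0.037 (limma adjusted p = 0.222), but -0.09 with an adjusted p of 0.0445 under quantile normalization. Without untreated library 3 it was -0.02 (adjusted p = 0.626), and without untreated library 1 it was -0.09 (0.0968). EPCAM had 0.06 (adjusted p = 0.0766). PKP2 and PKP3, the plakophilins of desmosomes, rose by 0.41 and 0.43. CLDN1, a tight junction claudin, had a log2 fold change of -0.55. PKP2, PKP3 and CLDN1 were named by a rule that takes called genes from both directions. Of the other claudins on the list, CLDN3 had -0.49 (limma adjusted p = 0.0133), CLDN7 -0.22 and CLDN4 -0.001.

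Of 27 mesenchymal targets 17 passed the filter, of which 8 rose and 2 fell (median 0.34), with the same 21.7% each way as background. VIM, the intermediate filament vimentin, went from 367, 308 and 294 normalized reads to 524 and 509 (log2 fold change 0.68 ± 0.088, limma adjusted p = 1.8e-07), and 52.6% of its exon length is covered by antisense genes. CDH2, the N-cadherin gene, went from 71.7, 63.8 and 64.7 to 109 and 94.0 (log2 fold change 0.59 ± 0.162, limma adjusted p = 0.00329). Leaving out the shared DETA/NO library ended that call (0.0699). THBS1 and TGFBI, both secreted TGF-beta targets, rose by 2.09 and 1.78. FN1, the fibronectin gene, had a log2 fold change of -0.48 and FBN1, fibrillin 1, of -0.77. COL1A1, also on the fibroblast marker list, rose by 0.49, while COL1A2, its partner chain, had at most 2 recovered reads. In untreated libraries CDH2 had at most 71.7 normalized reads.

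Among 9 genes whose exons ESRP proteins choose, 4 rose and 1 fell in total reads (median 0.08). Over all tested genes 21.7% were called in each direction. CD44 rose by 0.27 and SCRIB by 0.33, and CTNND1, p120 catenin, had a log2 fold change of -0.21. The files hold 1 value per gene, so exon choice was not analysed here.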

How the data were processed

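Total RNA of the 6 samples was sequenced after KAPA library preparation, per the labels. Per the submitters' processing notes the tools included TopHat2 2.1.1, Bowtie2 2.5.0.0, featureCounts 2.0.3 and DESeq2 1.38.3, with GRCh38. The deposited unit is a normalized read count (signal), 1 per gene. In each library 100% of values above 0 were whole reads times 1 factor (tolerance 0.01), so reads were recovered. Row names had turned into dates in 27 rows (0.254% of reads), which were kept but cannot be matched to symbols.

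Differences were tested in limma 3.58.1 (R 4.3.3; trend, robust) after adding 1 and taking log2, in the 16409 genes that averaged 10 or more. edgeR 4.0.16 called 7101 and DESeq2 1.42.0 5340 genes on the recovered reads. The 18 alternatives were these 2 count tests, limma without trend and robust option, other scalings, pseudocounts and filters, the identical files as separate samples, a replicate block, and dropping 1 library. Tests were checked on simulated counts. Python 3.11.15, pandas 2.3.3 and scipy 1.17.1 did the rest. Members and the 10 gene lists were chosen with earlier results of these data known. Named genes were the members, up to 2 called genes in each direction with the smallest adjusted p per list, standing genes such as CDH1 and VIM, and the 3 nearest profiles of each called member. CTBP1, CTBP2, HDAC1, HDAC2, COL1A1, COL1A2, OVOL3, MIR200CHG, ZEB1-AS1 and the microRNA rows were named after their values were seen. So were SMAD2, SMAD3, SMAD4, CLDN3, CLDN4, CLDN7, SPDEF and TP63. A gene that the rule names among the epithelial targets is not reported here.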

Additional observations from a re-analysis of the deposited data

How the results depend on the processing

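Limits: n = 2 DETA/NO libraries, and 9 to 53 recovered reads per library for ZEB1, TWIST1 and OVOL1, set the precision. Limma without trend and robust option called 0 members (0 higher, 0 lower, with 4 at an unadjusted p under 0.05) and 2262 genes higher over the whole table. It called 4 other mesenchymal factors, 6 corepressors, 2 genes of Snail turnover, 0 miR-200 and related host genes (1 unadjusted), 11 epithelial targets and 3 genes with ESRP-chosen exons. DESeq2 called 1 member higher, 3 genes of Snail turnover and 0 miR-200 and related host genes (2 unadjusted). Counting the identical files as separate samples called 10 genes of Snail turnover and 1 antisense partner.

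Replicate numbers were not shown to pair the samples: correlations of deviations from group means were -0.030 to 0.030. Deviations of the 2 DETA/NO libraries mirror each other by construction, so the range is symmetric. The shared library also has no single replicate number, so these correlations cannot decide whether samples were paired. With a replicate block and the shared library as number 1, 3 members were called (6605 genes in all). With it as number 2, 2 members were called, 1 of them higher, with 6321 genes in all and 1 miR-200 or related host gene.

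Leaving out each library in turn gave 1 to 4 members called, 1 to 3 higher and 0 to 1 lower, with 6 to 11 corepressors and 1 miR-200 or related host gene. Without the shared DETA/NO library SNAI1 alone was called. No repressor median exists at a mean of at least 50, since not all 3 passed. The median log2 fold change was 0.51 to 0.60 for the repressors and 0.03 to 0.06 for the keepers. The repressor median is the middle of only 3 genes, and which gene gave it changed with the library left out. Singly these genes ranged more widely: ZEB1 from 0.18 to 0.60, TWIST1 from 0.51 to 0.88 and SNAI1 from 0.51 to 0.75.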
